A study of Homo sapiens with 6 samples.

Results

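The 8 genes described here belong to the TAM and MET receptor systems: the receptors AXL, TYRO3 and MERTK with their ligands GAS6 and PROS1, and the receptors MET and MST1R with the MET ligand HGF. They were taken by symbol from a table of 21676 genes, and 8 of 8 symbols had a row. The table comes from RNA sequencing of the 83 cell line, which the submitters call a SACC cell, an abbreviation usually read as salivary adenoid cystic carcinoma. There were 3 control libraries and 3 libraries of cells overexpressing ApoD (apolipoprotein D). The labels do not give the construct, what the control cells received, whether the cells were a clone or a pool, or whether libraries came from separate cultures, so each p-value reflects how much these libraries varied, and that variation may be technical. APOD itself had 9, 8 and 2 counts in controls and 628, 528 and 625 with ApoD overexpression, which fits the labels.

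AXL, TYRO3 and MERTK are receptor tyrosine kinases that bind the vitamin K-dependent proteins GAS6 and protein S, which in turn bind phosphatidylserine on membranes. GAS6 binds each of these receptors, while protein S, the product of PROS1, acts on TYRO3 and MERTK; AXL is known in carcinoma for its link to mesenchymal traits and drug tolerance. MET and MST1R (also called RON) bind HGF and MSP, which are secreted as inactive precursors and cut into active form by serine proteases; HGF is typically made by stromal cells and acts on epithelial MET.

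Libraries held 37542568 to 40416964 counts. With ApoD overexpression 3539 of 14629 tested genes were higher and 3601 lower at an adjusted p under 0.05 in the quasi-likelihood F test of edgeR, 48.8% of those tested, so a called change was common in this comparison. CPM below are counts per 1000000 reads after TMM scaling, and FPKM are the authors' values per gene length, scaled by library totals only. Of the 8 genes, 7 passed the low-count filter. Higher levels were called for 2 of them, AXL and MST1R (24.2% of all tested genes were higher), and lower levels for 3, GAS6, PROS1 and MERTK (24.6%). TYRO3 and MET were not called, and HGF had too few counts to test. The 3 libraries of a group lay apart from those of the other in CPM for 5 of the 7, against 58.7% of all tested genes. In 3 of them the overexpression libraries were the lower ones, against 29.7% of all tested genes, and in 2 the higher, against 29%. MERTK, counted as lower in both tallies, passed the filter only through the controls, so its place there was set by the filter. In bulk RNA, a change in the share of cells that make a transcript and a change in its amount per cell cannot be told apart.

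AXL was the member that rose most. Its level was 76.1, 52.2 and 59.6 CPM in control replicates 1 to 3 and 120.1, 143.9 and 147.8 CPM with ApoD overexpression. Every overexpression library lay above every control library, and control replicate 1 was the highest control. AXL was 2.19-fold higher (log2 fold change 1.13 ± 0.14 SE, 95% interval 0.84 to 1.43, edgeR adjusted p = 4.66e-05). The rise passed the threshold in 15 of 15 alternative fits, with values of 0.97 to 1.30 on the log2 scale.

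TYRO3 was not called, and its groups overlapped. It had 66.0, 72.6 and 70.4 CPM in controls and 64.3, 70.3 and 67.2 CPM with ApoD overexpression. Its log2 fold change was −0.05 ± 0.09 SE (95% interval −0.25 to 0.14, edgeR adjusted p = 0.666). In FPKM, which follow library totals, TYRO3 was 6.48, 7.21 and 7.20 against 6.01, 6.38 and 6.18, so all overexpression libraries lay below the controls on that scale; the limma test on log2(FPKM + 1) gave −0.15 (adjusted p = 0.166). TYRO3 has a pseudogene copy in the genome that can share its reads.

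MERTK, the TAM receptor best known from macrophages that clear dying cells, was close to the limit of detection. It had 12, 15 and 10 counts in controls and 3, 2 and 4 with ApoD overexpression, or 0.302 ± 0.0625 against 0.0790 ± 0.0242 CPM (SD, n = 3). The overexpression libraries lay below the controls, at a log2 fold change of −1.89 ± 0.68 SE (edgeR adjusted p = 0.0364). MERTK entered the test through its control libraries, since the others had fewer than 10 counts. The call was lost in 10 of 13 alternative fits, among them every fit without 1 of the 6 libraries (adjusted p = 0.0697 to 0.122), and with the abundance trend removed the change was −1.0006.

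Both TAM ligands fell. GAS6 had 119.1, 128.3 and 133.6 CPM in controls and 66.9, 75.7 and 69.8 CPM with ApoD overexpression, and no library of one group reached the other. The level was 1.79-fold lower (log2 fold change −0.84 ± 0.09 SE, 95% interval −1.04 to −0.64, edgeR adjusted p = 2.42e-05). PROS1 had 19.5, 26.5 and 25.4 CPM in controls and 13.3, 8.48 and 9.45 CPM with ApoD overexpression; control replicate 1 and overexpression replicate 1 were the closest, still apart. PROS1 was 2.28-fold lower (log2 fold change −1.19 ± 0.18 SE, 95% interval −1.58 to −0.81, edgeR adjusted p = 2e-04). Each fall passed the threshold in 15 of 15 alternative fits. PROS1 has a pseudogene copy on the same chromosome that can share its reads.

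**Figure D1:**
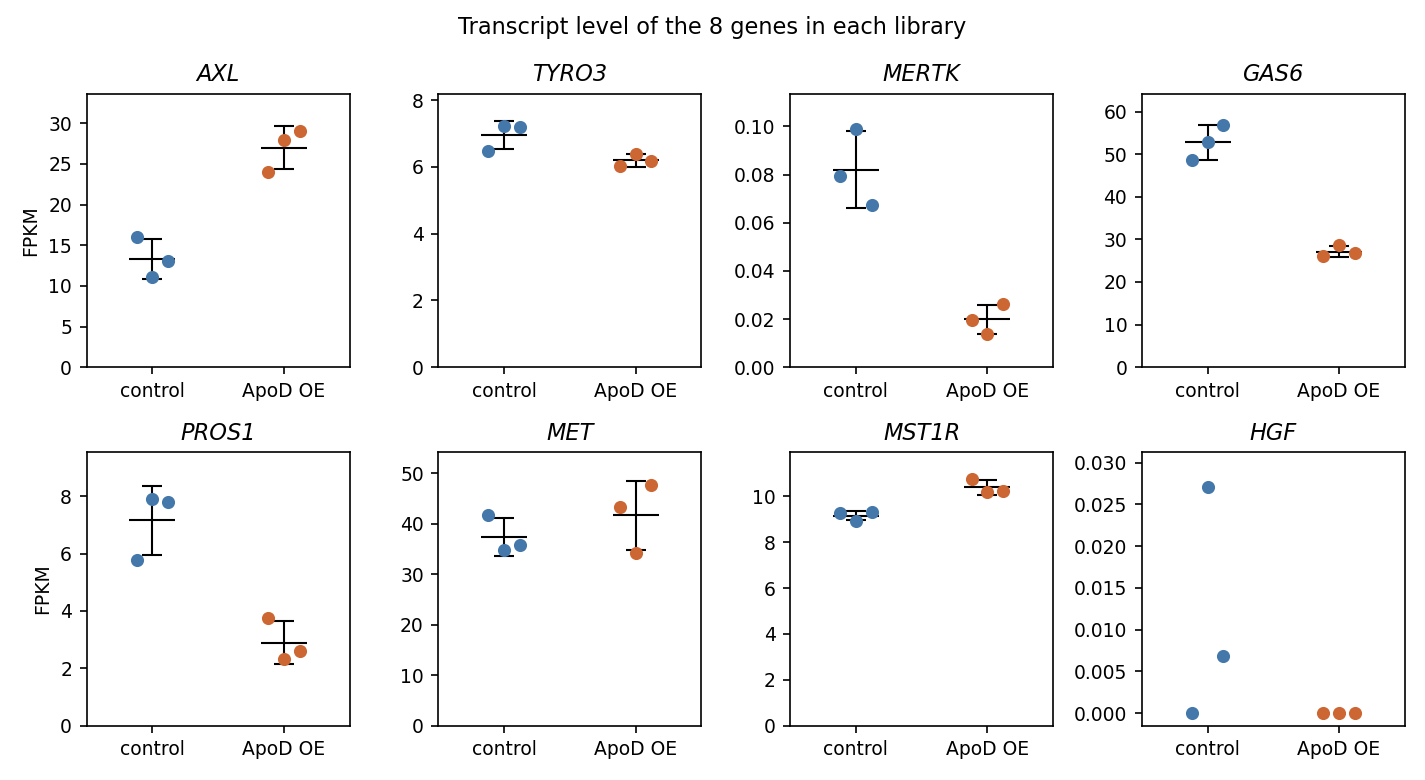
Transcript level of each gene in FPKM (vertical axis, starting near 0) in the 3 control and 3 ApoD overexpression (ApoD OE) libraries; points are libraries, the long bar is the mean and the whiskers 1 SD (not drawn for HGF). AXL rises from 11.1 to 16.0 FPKM in controls to 24.0 to 29.1, GAS6 and PROS1 fall, and MET overlaps between the groups.

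On the per-length scale AXL and GAS6 came to lie close together, while PROS1 moved away from both AXL and TYRO3. In FPKM, AXL averaged 13.4 ± 2.46 over the control libraries and 27.0 ± 2.67 over the others (SD, n = 3), and GAS6 was 52.8 ± 4.09 and 27.1 ± 1.33. The ratio of GAS6 to AXL FPKM was 3.04, 4.78 and 4.36 in controls and 1.08, 1.02 and 0.919 with ApoD overexpression. GAS6 thus exceeded AXL by at least 3.04-fold in each control library and was close to it in the others. The ratio of GAS6 to PROS1 FPKM was 7.47 ± 0.883 in controls and 9.84 ± 2.73 with ApoD overexpression, and its libraries overlapped. GAS6 was the more abundant ligand transcript in all 6 libraries. PROS1 was at 7.16 ± 1.21 FPKM in controls, beside 6.96 ± 0.421 for TYRO3, and at 2.89 ± 0.756 FPKM with ApoD overexpression, beside 6.19 ± 0.186.

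Within the TAM receptors, AXL took 70.9%, 60.3% and 64.2% of the summed FPKM of AXL, TYRO3 and MERTK in controls and 79.9%, 81.4% and 82.4% with ApoD overexpression. The summed level was 20.4 ± 2.07 and 33.2 ± 2.80 FPKM (SD, n = 3). The order of AXL and TYRO3 in control replicates 2 and 3 depended on whether reads were divided by gene length. The deposited FPKM use 10425 bases for TYRO3 and 4875 for AXL. The longest coding transcripts in GENCODE 29 have 8207 and 4737, so TYRO3 is the longer by either source. In raw counts, AXL took 53.5%, 41.7% and 45.8% of the TAM receptor reads in controls, so that TYRO3 had more reads than AXL in control replicates 2 and 3, and 65.1%, 67.2% and 68.7% with ApoD overexpression. AXL's share was higher in every overexpression library on both scales.

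MET was the most abundant receptor of the 8 genes. It had 291.7, 241.1 and 239.9 CPM in controls and 318.0, 258.6 and 355.6 CPM with ApoD overexpression. Overexpression replicate 2 lay below control replicate 1, so the groups overlapped, and the change of 0.27 ± 0.12 SE was not called (edgeR adjusted p = 0.0873). The 95% interval for this gene was 0.0025 to 0.54. Without control replicate 1 or overexpression replicate 2 the change was called, at 0.37 and 0.38 on the log2 scale (adjusted p = 0.0149 and 0.0163), and without overexpression replicate 3 it was 0.18 and not called (0.302). With library totals the change was 0.16 (0.317), on log2(FPKM + 1) 0.14 (0.356), and with the abundance trend removed 0.075 (0.623). The ratio of MET to AXL FPKM was 2.61, 3.14 and 2.74 in controls and 1.80, 1.22 and 1.64 with ApoD overexpression, without overlap.

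MST1R, the MSP receptor, changed little but evenly. It had 48.0, 45.8 and 46.3 CPM in controls and 58.6, 57.2 and 56.5 CPM with ApoD overexpression, 1.23-fold higher and without overlap (log2 fold change 0.30 ± 0.09 SE, adjusted p = 0.0138 in edgeR). The call was lost with scaling by library totals (0.18, adjusted p = 0.0952), with the abundance trend removed (0.19, 0.0937), on FPKM (0.0861 to 0.0883) and without control replicate 2 (0.29, 0.0659).

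HGF, the ligand of MET, was near the limit of detection. It had 0, 8 and 2 counts in controls and 0, 0 and 0 with ApoD overexpression. With a floor of 3 counts put in for the overexpression group, its summed level was 3.08-fold lower with ApoD overexpression. That value leaves out counting error in the 10 control counts and is no lower limit. Without control replicate 2 only 2 counts remained in the controls and no fold can be given. PDGFRA, a fibroblast marker, had no row in the table. Of 8 fibroblast markers 7 had a row and 2 of them, COL1A1 and COL3A1, reached 10 counts in a library. Their summed level was 27.2 to 32.7 CPM in controls and 9.996 to 13.8 CPM with ApoD overexpression, mostly from COL1A1. COL3A1 had 161, 128 and 67 counts in controls and 6, 4 and 4 with ApoD overexpression, while DCN and LUM had 1 count per group each. Macrophage and other immune markers summed to 4.37 to 7.40 and 4.22 to 4.51 CPM, mostly CSF1R, and 6 of 8 had a row. Epithelial markers summed to 2960 to 4040 and 3532 to 4036 CPM, mostly KRT8 and KRT18, but single members moved. CDH1 (E-cadherin) fell from 76.1 ± 7.598 to 31.2 ± 3.48 CPM, and KRT19 and EPCAM were also called lower (−2.46 ± 0.36 and −0.30 ± 0.09). KRT7 was called higher with overlapping groups (0.48 ± 0.14). Endothelial markers, of which 4 of 6 had a row, summed to 8.11 to 13.4 and 1.35 to 2.30 CPM. The part of these marker levels in the changes of AXL, HGF and MERTK was not tested.

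**Figure D2:**
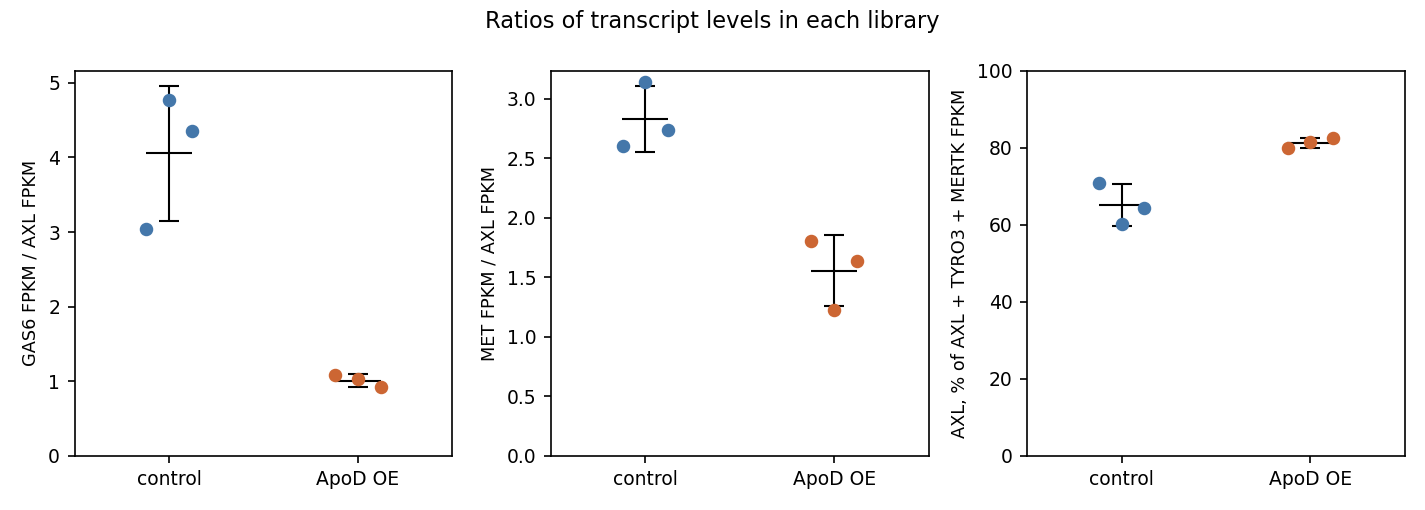
Ratio of GAS6 to AXL FPKM (left), ratio of MET to AXL FPKM (middle) and the percent of the summed FPKM of AXL, TYRO3 and MERTK that AXL took (right) in each library; points are libraries, the long bar is the mean and the whiskers 1 SD. The groups do not overlap in any of these panels, and GAS6 to AXL goes from 3.04 or more to 1.08 or less.

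The sequences before the transcription starts of AXL and of both TAM ligands are shown. Apart from MERTK, which was close to the limit of detection, these members had the largest called changes. RefSeq windows (GRCh38.p14) matched 8 of 8 genes, and each run below is the 250 bases before a start, 5′ to 3′ on the gene's strand. Capitals mark matches, on either strand, to an AP-1 motif (TGANTCA), a TEAD motif (GGAATG), a GC box (GGGCGG) or the E-box bound by ZEB and SNAI factors (CACCTG). RefSeq lists AXL with a pair of starts, and the deposited counts do not separate them.
AXL, chr19:41218973-41219222, plus strand: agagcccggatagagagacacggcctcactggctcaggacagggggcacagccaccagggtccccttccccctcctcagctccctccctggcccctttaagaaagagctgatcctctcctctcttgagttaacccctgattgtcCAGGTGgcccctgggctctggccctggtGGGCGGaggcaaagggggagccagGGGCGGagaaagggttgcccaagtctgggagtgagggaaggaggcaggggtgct
AXL, second start, chr19:41226505-41226754, plus strand: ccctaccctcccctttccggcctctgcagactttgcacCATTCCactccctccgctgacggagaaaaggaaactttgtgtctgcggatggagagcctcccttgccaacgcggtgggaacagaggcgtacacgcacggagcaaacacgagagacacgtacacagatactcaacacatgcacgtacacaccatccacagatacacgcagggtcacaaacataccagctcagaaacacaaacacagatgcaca
GAS6, chr13:113864077-113864326, minus strand: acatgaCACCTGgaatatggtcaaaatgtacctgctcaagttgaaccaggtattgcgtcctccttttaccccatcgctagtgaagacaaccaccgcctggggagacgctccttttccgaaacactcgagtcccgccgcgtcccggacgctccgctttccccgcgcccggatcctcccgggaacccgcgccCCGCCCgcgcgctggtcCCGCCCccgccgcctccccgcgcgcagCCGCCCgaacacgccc
PROS1, chr3:93973897-93974146, minus strand: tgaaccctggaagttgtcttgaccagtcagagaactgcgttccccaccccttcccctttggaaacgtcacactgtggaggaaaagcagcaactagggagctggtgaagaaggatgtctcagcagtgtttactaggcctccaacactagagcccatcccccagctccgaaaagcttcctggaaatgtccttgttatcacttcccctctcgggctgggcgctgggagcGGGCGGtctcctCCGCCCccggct

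The first AXL window held 2 GC boxes and 1 E-box, and the window of the second start held 1 TEAD match, which begins 212 bases before that start, and no GC box. GAS6 had 3 GC boxes and 1 E-box, and PROS1 had 2 GC boxes and none of the other motifs. Of 35116 RefSeq windows of the same length, 42.6% held a GC box, 17.5% the E-box, 11.9% the TEAD motif and 6.6% the AP-1 motif. These matches are letters in a window, and no binding was measured. The start of GAS6 lies 101 bases from that of GAS6-DT, a noncoding transcript that runs the other way and was picked out after its values were seen. GAS6-DT had 58, 61 and 55 counts in controls and 41, 21 and 29 with ApoD overexpression, without overlap in CPM, at a log2 change of −0.83 ± 0.36 that was not called (edgeR adjusted p = 0.0763). GAS6-AS1, which overlaps GAS6 on the opposite strand, had 15 to 29 and 15 to 33 counts; without a stated strand setting its reads and those of GAS6 cannot be told apart, but they were few beside the 2634 to 5530 counts of GAS6.

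Among receptor tyrosine kinases AXL moved up the order of per-length levels. Of 58 such receptors, 51 had a row. By mean FPKM MET was at rank 5 in both groups, AXL went from rank 10 to rank 7, MST1R stayed at 11 and TYRO3 went from 14 to 13. In controls AXL (11.1 to 16.0 FPKM) overlapped its neighbour ERBB2 (12.8 to 15.3) and lay above MST1R (8.92 to 9.30). With ApoD overexpression AXL (24.0 to 29.1 FPKM) lay above PTK7 (20.3 to 20.6) and overlapped RYK (28.3 to 30.4). MET overlapped EGFR in controls (34.8 to 41.6 against 35.5 to 40.03 FPKM). Of the 29 other receptor tyrosine kinases that were tested, 4 were higher and 10 lower (24.2% and 24.6% of all tested genes), with a median log2 fold change of −0.38 against −0.02 for all tested genes. The higher ones were EPHA2 (0.93 ± 0.12), FGFR1, EGFR and the WNT5A receptor ROR1 (1.28 ± 0.23), and the largest fall was in the ephrin receptor EPHB3 (−3.07 ± 0.20). LTK, ERBB3, FGFR4 and EPHA1 followed, at −2.55 ± 0.75, −1.54 ± 0.28, −1.35 ± 0.17 and −1.18 ± 0.17. LTK had 13 counts in all with ApoD overexpression and passed the low-count filter only through the controls, so its place among the lower receptors was set by the filter. The LTK call was lost with the abundance trend removed. AXL's rise of 1.13 was thus exceeded by ROR1 alone among them, at 1.96 ± 0.419 and 4.75 ± 0.364 CPM.

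**Figure D3:**
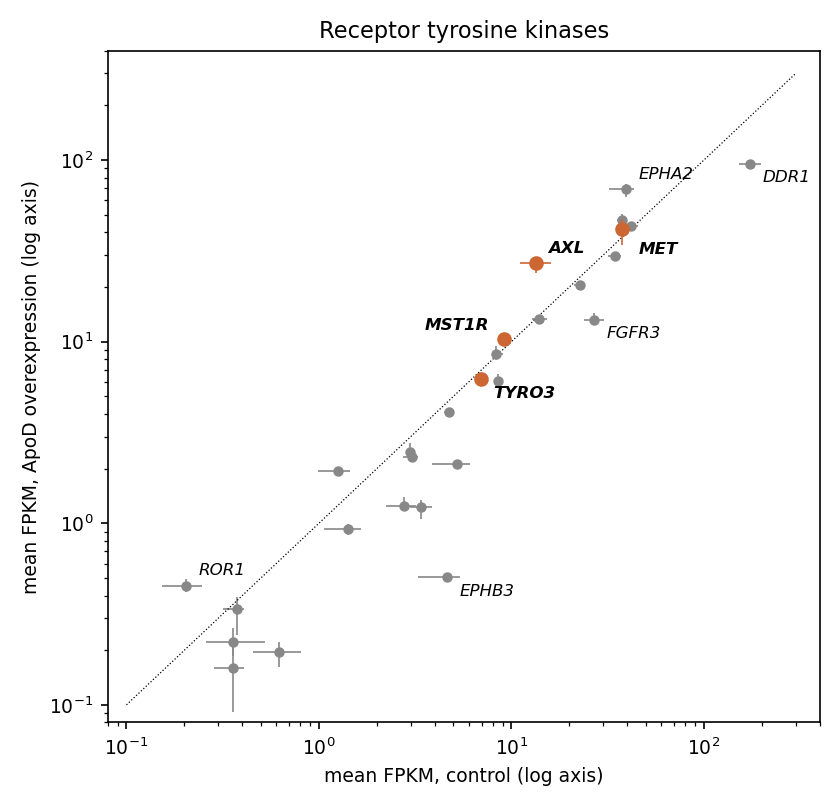
Mean FPKM of 28 receptor tyrosine kinases with at least 0.1 FPKM in both groups, control on the horizontal and ApoD overexpression on the vertical axis (both log axes); whiskers run from the lowest to the highest of 3 libraries and the dotted line marks equal levels. Orange points are AXL, MET, MST1R and TYRO3, and AXL lies above the line while MET, MST1R and TYRO3 lie close to it.

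Genes that mature or resemble the TAM ligands were mixed. Of 6 listed, 4 were tested, 2 were higher and 1 lower, against 24.2% and 24.6% of all tested genes. VKORC1L1 and VKORC1, which recycle the vitamin K that the carboxylase of GAS6 and protein S needs, showed log2 fold changes of 0.46 ± 0.09 and 0.38 ± 0.12 SE (edgeR adjusted p = 0.00142 and 0.0193). The carboxylase itself, GGCX, was at 35.8 ± 4.37 and 40.9 ± 1.57 CPM (n = 3) and was not called. LGALS3, which encodes galectin-3, a lectin described as a ligand of MERTK, fell from 80.9 ± 7.77 to 51.5 ± 3.54 CPM (n = 3; edgeR adjusted p = 0.000291). The VKORC1 call was lost in 7 of 15 alternative fits, including library totals.

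Most tested genes of the HGF and MSP supply list were lower. This list holds activating proteases, their inhibitors and MST1, the gene for MSP. Of 16 listed genes 15 had a row and 9 were tested: 8 were lower and none higher, with a median log2 fold change of −1.28, where 24.6% of all tested genes were lower. KLK5 and SERPINA5, both among the 8, passed the low-count filter only through the controls, so their place among the lower genes was set by the filter. The median includes both, so it too depends in part on the filter. ST14, the membrane protease matriptase, which cuts HGF and MSP precursors, had 4096, 5248 and 4488 counts in controls and 1158, 1048 and 961 with ApoD overexpression. That is a 4.02-fold lower level (−2.01 ± 0.12 on the log2 scale, adjusted p = 3.23e-07 in edgeR), far beyond the spread of either group. SPINT1 and SPINT2, Kunitz inhibitors of ST14 and hepsin, fell by less. SPINT1 went from 82.2 ± 2.47 to 51.4 ± 2.40 CPM and SPINT2 from 339.1 ± 14.5 to 204.3 ± 10.03 CPM (SD, n = 3; log2 fold changes −0.68 ± 0.09 and −0.73 ± 0.09 SE). PLAU, or urokinase, which makes plasmin, fell from 176.3 ± 23.9 to 128.3 ± 1.42 CPM.

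MST1, which encodes MSP, the ligand of MST1R, had 84, 128 and 140 counts in controls and 41, 44 and 48 with ApoD overexpression (log2 fold change −1.28 ± 0.29 SE, edgeR adjusted p = 0.00342). Its pseudogene relatives can share these reads. HPN, or hepsin, another activator of HGF, was not tested; it had 22, 29 and 9 counts in controls and 0, 0 and 1 with ApoD overexpression, so controls were 55.4 times higher, within 9.56 to 2220 by counting error alone (95%). Its only count there came from overexpression replicate 3. KLK5, a kallikrein protease, fell from 33, 40 and 43 counts to 2, 0 and 4. The serpins SERPINF2, which inhibits plasmin, and SERPINA5 had changes of −2.62 ± 0.27 and −3.33 ± 0.98. All 5 counts of SERPINA5 with ApoD overexpression came from replicate 3, and its call was lost in 4 of 13 alternative fits. F12 was the tested gene of this list that was not called, at 9.56 ± 1.95 and 11.6 ± 0.811 CPM (n = 3). The other listed activators were not tested: HGFAC, TMPRSS2, TMPRSS13 and PLG had 2, 1, 4 and 4 counts in all, each in controls, and KLKB1 had 0, 0 and 0 counts in controls and 4, 0 and 1 with ApoD overexpression.

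**Figure D4:**
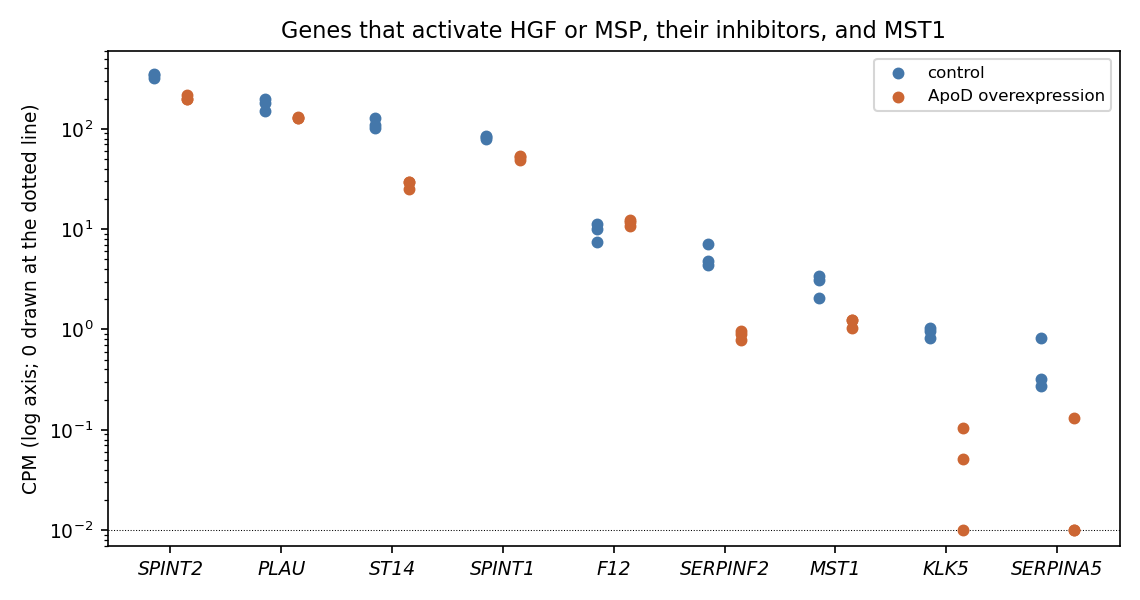
Level in CPM (log axis, with a level of 0 drawn at the dotted line) of the 9 tested genes that activate HGF or MSP, inhibit those proteases or encode MSP (MST1), with 1 point per library. ST14 goes from 112.7 ± 13.8 to 28 ± 2.53 CPM, and F12 is the gene whose groups overlap.

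ADAM10 and ADAM17, the metalloproteases that release the outer parts of AXL, MERTK and MET, were somewhat lower without passing the threshold. ADAM10 was at 193.4 ± 4.13 and 158.2 ± 28.8 CPM and ADAM17 at 96.4 ± 4.48 and 81.0 ± 8.78 CPM (SD, n = 3; edgeR adjusted p = 0.0645 and 0.0546). Both passed in 7 of 15 alternative fits, among them library totals. Of the metalloprotease inhibitors listed with them, TIMP1 rose by 0.76 ± 0.10 and TIMP3 fell by 0.60 ± 0.10 on the log2 scale (edgeR adjusted p = 8.43e-05 and 0.000389).

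Of 10 membrane partners of MET or the TAM receptors 3 were higher and 3 lower, near the 24.2% and 24.6% of all tested genes. NRP1, a co-receptor for several growth factors, went up from 7.99 ± 0.0918 CPM to 13.8 ± 1.87 CPM (log2 fold change 0.79 ± 0.14, adjusted p = 0.000767 in edgeR). CD44, whose variant forms present HGF to MET, and CDCP1 had log2 fold changes of 0.36 and 0.32, and ITGB4, PLXNB1 and PLXNB2 of −0.26 to −0.28. The calls of these 5 were each lost in at least 4 of 15 alternative fits, and with library totals 1 partner was higher.

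Of 21 adaptors and effectors 1 was higher and 7 lower, with 13 not called and a median of −0.22 (all tested genes: 24.2% higher, 24.6% lower). GAB1, the docking protein that carries much of the signal of MET, was at 7.43 ± 0.433 CPM in controls and at 3.58 ± 1.30 CPM with ApoD overexpression, a log2 change of −1.05 ± 0.23 (adjusted p = 0.00299 in edgeR). VAV3, a guanine nucleotide exchange factor, fell from 117.6 ± 19.2 to 30.5 ± 4.77 CPM (edgeR adjusted p = 1.75e-06). SOS1, SOCS3 and SHC1 had changes of −0.57 ± 0.13, −0.55 ± 0.13 and −0.44 ± 0.10, and PTPN11, the phosphatase SHP2, rose by 0.42 ± 0.10, a call lost in 2 of 15 alternative fits. GRB2, which links the receptors to RAS, was not called at 117.6 ± 7.57 and 134.5 ± 7.26 CPM.

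Of 15 negative regulators 5 were higher and 3 lower, with a median of 0.17, beside 24.2% and 24.6% of all tested genes. SPRY4, DUSP4 and SPRY2, feedback inhibitors of the ERK pathway that receptor kinases drive, had log2 fold changes of 1.57 ± 0.32, 1.04 ± 0.13 and 0.87 ± 0.16 (SE). DUSP6 of the same list was not called (0.39 ± 0.23), and ERRFI1 was called lower with overlapping groups (−0.35 ± 0.13). SH3KBP1, which takes part in receptor endocytosis with CBL proteins, rose by 0.66 ± 0.11, and the phosphatase PTPN1 went from 120.9 ± 4.89 to 160.1 ± 5.44 CPM. CBLB, a ubiquitin ligase for receptor kinases, fell from 14.7 ± 1.19 to 9.39 ± 2.07 CPM (n = 3; edgeR adjusted p = 0.00742), while CBL was not called at 51.7 ± 3.38 and 55.3 ± 7.22 CPM.

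Transcripts often read as output of AXL or MET signalling, a list that also holds AXL, MET and HGF, were higher in 9 of 16 tested genes and lower in 4, with a median of 0.71, against 24.2% and 24.6% of all tested genes; AXL itself is 1 of the 9. FOSL1, an AP-1 subunit, rose from 19.0 ± 2.42 to 62.1 ± 8.26 CPM, CCND1 (cyclin D1) from 75.4 ± 7.38 to 175.7 ± 17.0 CPM and SNAI2 from 15.5 ± 1.16 to 40.03 ± 1.47 CPM (SD, n = 3). ZEB1, which like SNAI2 represses epithelial genes, went from 1.40 ± 0.466 to 3.21 ± 0.560 CPM, a call lost on unfiltered FPKM. SNAI1 and TWIST1 of the same list were not called, at log2 fold changes of −0.39 ± 0.32 and 0.17 ± 0.11 SE. The lower genes included the collagenase MMP1, from 64.4 ± 17.7 to 11.5 ± 0.362 CPM, and PTGS2, which encodes cyclooxygenase-2, from 6.86 ± 1.98 to 2.96 ± 0.671 CPM. Genes on this list are controlled by many inputs, and neither receptor activity nor protein was measured.

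**Figure D5:**
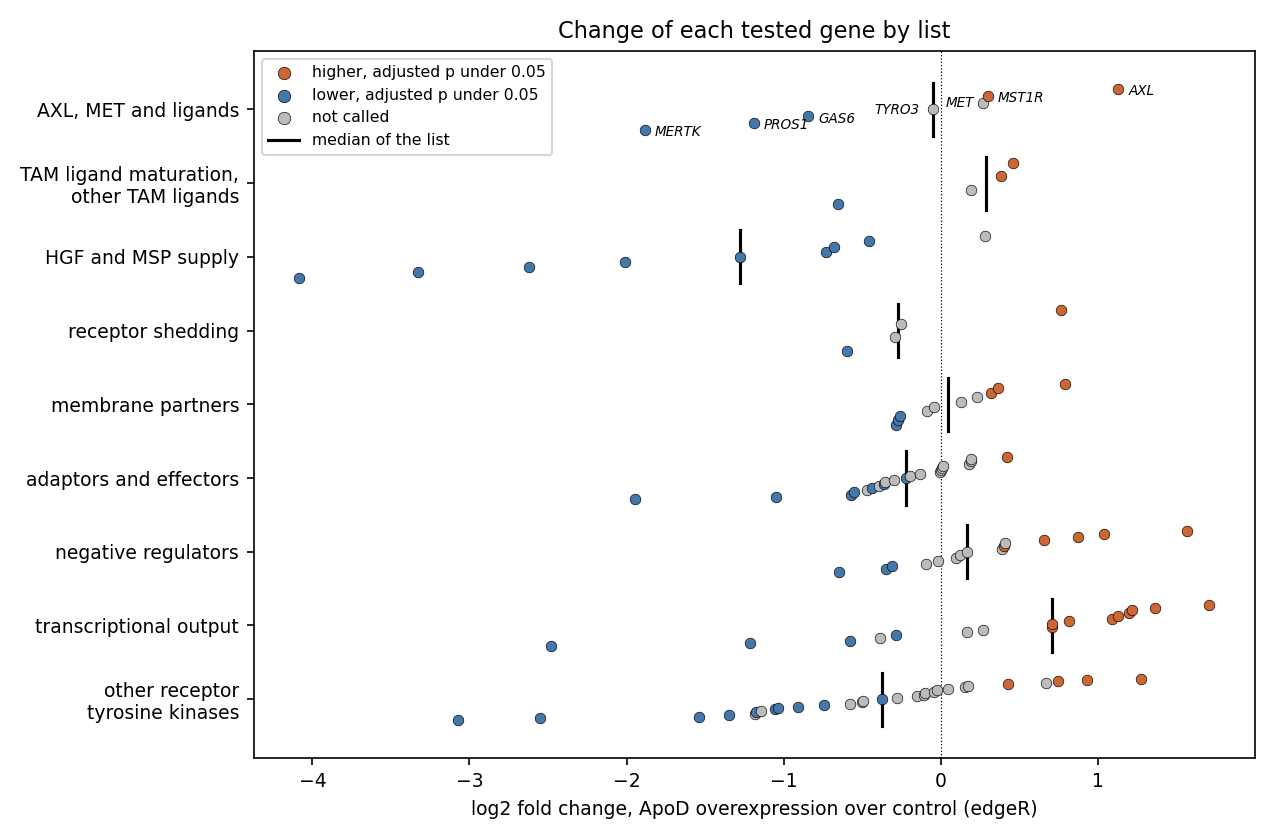
Log2 fold change of every tested gene (horizontal axis, ApoD overexpression over control, edgeR) in 9 lists; orange points are called higher, blue lower and grey not called, and the black line is the median of the list. The HGF and MSP supply list has its median at −1.28 and the transcriptional output list at 0.71, with members on both sides of 0 in each. The median of the supply list includes KLK5 and SERPINA5, which passed the low-count filter only through the controls.

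The tested genes nearest to each called member were found by the root mean square difference of centred log2 CPM over the 6 libraries, among 12653 other genes with at least 1 CPM on average. For AXL they were CTPS1, RXYLT1 and DDX31, with differences of 0.033, 0.049 and 0.053. For GAS6, they were NECAB3 (0.042), CDKN2A (0.049) and ALDH1A3 (0.049), and for PROS1 they were LTBP1 (0.074), MDGA1 (0.076) and TMEM92 (0.084). For MST1R they were HDAC2 (0.020), WASF1 (0.022) and RAP1GDS1 (0.025), and for MERTK they were SEMA3C (0.13), ANK1 (0.14) and HLA-DQB1 (0.14). MERTK itself, at 0.302 and 0.0790 CPM, lay below the level asked of the other genes. The 3 genes nearest to it had log2 fold changes of −1.43, −1.57 and −1.47, against −1.89 for MERTK. With 2 groups of 3 libraries, the root mean square difference largely follows the size of the group difference.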

How the data were processed

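RNA from 3 control and 3 ApoD overexpression libraries was sequenced with a SMARTER mRNA-Seq kit, per the labels' protocols. For aligner, counter, strand setting and genome build the entry is: not given in the sources used here. The authors deposited whole-number read counts per gene symbol, and FPKM, per the file headers. Each of 108650 FPKM values above 0 equals count over column total and gene length (tolerance 1e-06). That length was derived from the same counts and FPKM, so the match shows only that a single length per gene fits the libraries.

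All counts were fitted with edgeR 4.0.16 (R 4.3.3): TMM scaling, filterByExpr with a minimum count of 10, two-sided quasi-likelihood F test, Benjamini-Hochberg adjustment, threshold 0.05. SE were derived from the log2 fold change and the F value; intervals are 95% for single genes. Fold changes are ApoD overexpression over control. The fit was tested on simulated data. The floor of 3 counts stands in for a group without counts and leaves out counting error in the other group. The interval of the count ratio covers counting error only. No library was a copy of another (chi-square over degrees of freedom 11.6 to 39.5 within groups).

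The members and lists were chosen with earlier results of these data known. Named are the 8 members, up to 6 called genes per list by size of change, listed activating proteases, SPINT1, SPINT2, ADAM10, ADAM17, MST1 and GGCX, and the 3 nearest profiles per called member; others were named after their values were seen. Alternatives were DESeq2 size factors, library totals, the DESeq2 1.42.0 Wald test, no filter, a replicate block, limma 3.58.1 on log2(FPKM + 1) or log2(FPKM + 0.1), removal of the abundance trend, and leaving out each library.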

Additional observations from a re-analysis of the deposited data

How the results depend on the processing

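AXL, GAS6 and PROS1 kept their direction and call in 15 of 15 alternatives each. MERTK lost its call with the DESeq2 Wald test (−1.92), with no low-count filter (−1.87), with the abundance trend removed (−1.0006) and without any 1 library (−2.11 to −1.72). MET was called with no low-count filter (0.29), ran from 0.18 to 0.38 with 1 library left out, and was 0.075 with the abundance trend removed. MST1R lost its call with library totals (0.18), the abundance trend removed (0.19) and limma on log2(FPKM + 1) with and without the filter (0.16 and 0.16) or on log2(FPKM + 0.1) (0.18), and ran from 0.29 to 0.33 with 1 library left out. TYRO3 ran from −0.093 to 0.0073 with 1 library left out, changing sign without ApoD overexpression replicate 1, and was called in 0 of 15. The cause of these changes was not tested. Over all genes, unfiltered limma called 2286 higher, and library totals called 2580 higher and 4435 lower, with a median log2 fold change of −0.13.

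Libraries that share a number did not deviate together (correlations of −0.115, −0.006 and −0.039), so they are not treated as pairs. With the replicate block, MERTK (−1.88, adjusted p = 0.0882) and MST1R (0.30, adjusted p = 0.0516) were not called, and 3088 genes were higher and 3260 lower.

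Of 43 called genes picked from the lists by size of change or role, 33 were called in every alternative that tested them. Other called genes named above, among them EPHA2 and CDH1, and the nearest profiles were not in this tally. Of 270 recomputed list counts, 235 stayed within 1.5 times; filtered FPKM left 6 genes of the HGF and MSP supply list, of which 5 were lower. Few counts limit HGF, MERTK, HPN and SERPINA5.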
